A study of Saccharomyces cerevisiae with 18 samples.

Results

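The enzymes that act on pyruvate in budding yeast (Saccharomyces cerevisiae) were followed through 10 genes, chosen by name: PDC1, PDC5 and PDC6 for pyruvate decarboxylase, PDA1, PDB1, LAT1, LPD1 and PDX1 for the pyruvate dehydrogenase complex, and PYC1 and PYC2 for pyruvate carboxylase. They are 10 of 5656 genes that had a probe set matching a single gene on the Affymetrix yeast S98 array, a chip of short oligonucleotide probes. Each had 1 such probe set, and all 10 passed the filter on low values that left 5545 tested genes. RNA was measured on 18 arrays, 3 independent cultures in each of 6 groups, from exponentially growing cells. The medium was synthetic complete, and its carbon source was either glucose or ethanol. All strains had the W303-1A background, labelled MATa, and so shared its mutant alleles of ade2, his3, leu2, trp1, ura3 and can1. The groups were this wild type (WT), a strain labelled far1Δ, in which far1 was deleted with a his3 marker, and a strain labelled FAR1OE that carried the plasmid pTet-FAR1-15Myc for overexpression of FAR1, an inhibitor of a cyclin-dependent kinase. The labels list no change of chromosomal FAR1 in FAR1OE, and no group with an empty plasmid is among the samples. The stated question was how FAR1 dosage changes the transcription pattern in each carbon source.

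Pyruvate, the end product of glycolysis, meets these enzymes at a branch point. Pyruvate decarboxylase removes carbon dioxide to give acetaldehyde, which fermenting cells reduce to ethanol, and the mitochondrial pyruvate dehydrogenase complex converts pyruvate to acetyl-CoA for respiration. Pyruvate carboxylase adds carbon dioxide to give oxaloacetate, which refills the tricarboxylic acid cycle and can feed gluconeogenesis. With ethanol as carbon source, acetyl-CoA can be made from acetaldehyde and acetate without passing through pyruvate.

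The arrays were not at a common level. Their median deposited intensity ranged from 8.5 to 23.8, and their number limits the precision. FAR1 itself read 17.9 to 29.3 on the WT arrays, 4.1 to 7.0 in far1Δ in glucose and 556.9 to 1019.5 in FAR1OE in glucose. In ethanol, deletion array 3 read 2595.7 and overexpression array 3 read 3.3, both against their labels. They were kept in their labelled groups, and ethanol results are given without this pair where that changed a call or moved a called change by over 1.5-fold. Overexpression arrays 1 and 3 in glucose had an actin 5′ control signal of 4.8 and 2.6, against 633.8 to 1324.2 on the other 16 arrays, and results of that group are given without these arrays by the same rule. The 5′ to 3′ ratio of the BioDn hybridization control was 0.169 to 0.231 on the 6 WT arrays and on far1Δ glucose array 1 (0.174), and 0.369 to 0.575 on the other 11, so the strains are nearly split by it. HIS3 read 6.4 to 10.2 in WT and 127.2 to 340 on the 12 arrays of both FAR1 strains. Of the genes that mark the mating type, STE2 of a cells read at most 2.4 and STE3 of alpha cells 38.4 to 136.4, although the labels call the strains MATa.

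In ethanol against glucose the branch point changed unevenly within each enzyme. Of the 10 genes, 2 rose (LPD1 and PYC1) and 1 fell (PDC1) in WT. In far1Δ 4 rose (PDB1, LPD1, PDX1 and PYC1) and 1 fell (PDC1), and in FAR1OE 4 rose (PDC6, PDB1, LPD1 and PYC1) and 2 fell (PDC1 and PDC5). Rises and falls here are log2 changes from limma with a Benjamini-Hochberg adjusted p under 0.05 over all 5545 genes, after quantile normalization, and so are relative to the typical gene. Ethanol moved a large share of all genes: 22.4% were called higher and 20.9% lower in WT, 21.7% and 21.2% in far1Δ, and 17.4% and 22.8% in FAR1OE. On the deposited scale the split of calls was 2361 higher and 173 lower in WT, 1477 and 372 in far1Δ and 1120 and 336 in FAR1OE, against 1241 and 1161, 1204 and 1174, and 964 and 1267 here. In WT the members' counts stood near these shares. In far1Δ and FAR1OE 4 of 10 were higher, of which the PDB1 call was lost under several other settings and PDC6 passed the filter through ethanol arrays alone, and nothing is read from these counts about the enzymes as a set. In RNA from a whole culture, fewer cells with a transcript and less of it per cell cannot be told apart. Their median log2 change was 0, 0.35 and 0.10 in the same order of strains, and that of all tested genes 0, -0.01 and -0.09.

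PDC1 codes for the main pyruvate decarboxylase of fermenting cells. In glucose it read 1594.4, 1691.7 and 2349.4 in WT, 1663.8, 2504 and 2422.4 in far1Δ and 1969.5, 2785.3 and 1786 in FAR1OE. In ethanol it read 696.5, 593.4 and 738.5, then 573, 944.7 and 564, then 406.9, 538.4 and 708.6 in the same order. All 9 glucose arrays lay above all 9 ethanol arrays. The share of all genes that separate by carbon source was not counted, here or for the other members. The log2 change was -1.58 ± 0.18 in WT (SE, n = 3 arrays a group, adjusted p = 1.41e-06), a level 2.99-fold lower with a 95% interval for the ratio of 0.257 to 0.434. It was -1.42 in far1Δ (adjusted p = 5.40e-06) and -1.90 in FAR1OE (adjusted p = 1.98e-07). The share of tested genes with a lower change than PDC1 was 2.2% in WT, 3.3% in far1Δ and 1.2% in FAR1OE.

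PDC5 codes for a second decarboxylase, which is known to be raised when PDC1 is lost. Its probe set stayed between 19.6 and 41.1 on all 18 arrays, and the glucose and ethanol arrays overlapped. In WT it read 19.6, 21.7 and 22.7 in glucose and 26, 28.9 and 27 in ethanol. The deposited values were thus higher in ethanol in WT, while the change relative to the typical gene was -0.39 ± 0.18 (adjusted p = 0.0887). In FAR1OE PDC5 read 37.4, 41.1 and 31.3 in glucose and 29.1, 23.4 and 24.5 in ethanol. Here it fell by 0.86 on the log2 scale (SE 0.18, adjusted p = 9.15e-04), but on the deposited scale the change of -0.50 did not pass (adjusted p = 0.126). In far1Δ the change was -0.31 (adjusted p = 0.182). Over the 18 arrays PDC1 read 406.9 to 2785.3, PDC5 19.6 to 41.1 and PDC6 0.1 to 36.4. Whether PDC1 transcripts bind to the probes of its close relatives PDC5 and PDC6 was not tested.

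PDC6 codes for a minor isoform and lay near the floor of the scale except on 2 arrays. In glucose it read 0.1, 0.2 and 0.3 in WT, 1.8, 0.2 and 0.4 in far1Δ and 0.1, 0.2 and 0.5 in FAR1OE. In ethanol it read 2, 1.2 and 1.7 in WT, 2, 3.3 and 3.7 in far1Δ and 3.4, 36.4 and 35.2 in FAR1OE. The high readings were on overexpression arrays 2 and 3, of which array 2 had a FAR1 signal of 2722.3 and array 3 of 3.3. It read above the filter level, the 20th percentile of its array, on 0 of 9 glucose arrays, 0 of 3 WT ethanol arrays, 2 of 3 far1Δ ethanol arrays and 3 of 3 FAR1OE ethanol arrays. A gene that enters the test in this way had to differ, so its changes are given as a description. The fitted change in FAR1OE was 4.18 (adjusted p = 1.45e-04), and its size followed the settings. It was 2.44 with a pseudocount of 2.9 in place of 0.4, 3.58 without the pair of arrays against their FAR1 labels and 5.21 without FAR1OE ethanol array 1. The fitted changes in WT and in far1Δ were 1.51 and 1.48, with adjusted p = 0.0967 and 0.104, and each passed under 2 of 26 other settings. On the deposited scale the WT change of 1.75 passed (adjusted p = 0.0382). Without FAR1OE ethanol array 1 both changes kept their size and passed (adjusted p = 0.0316 and 0.0346). Without far1Δ glucose array 1, which read 1.8, the far1Δ change was 2.04 and passed (adjusted p = 0.0451). With the larger pseudocount the WT and far1Δ changes were 0.45 and 0.57.

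**Figure D1:**
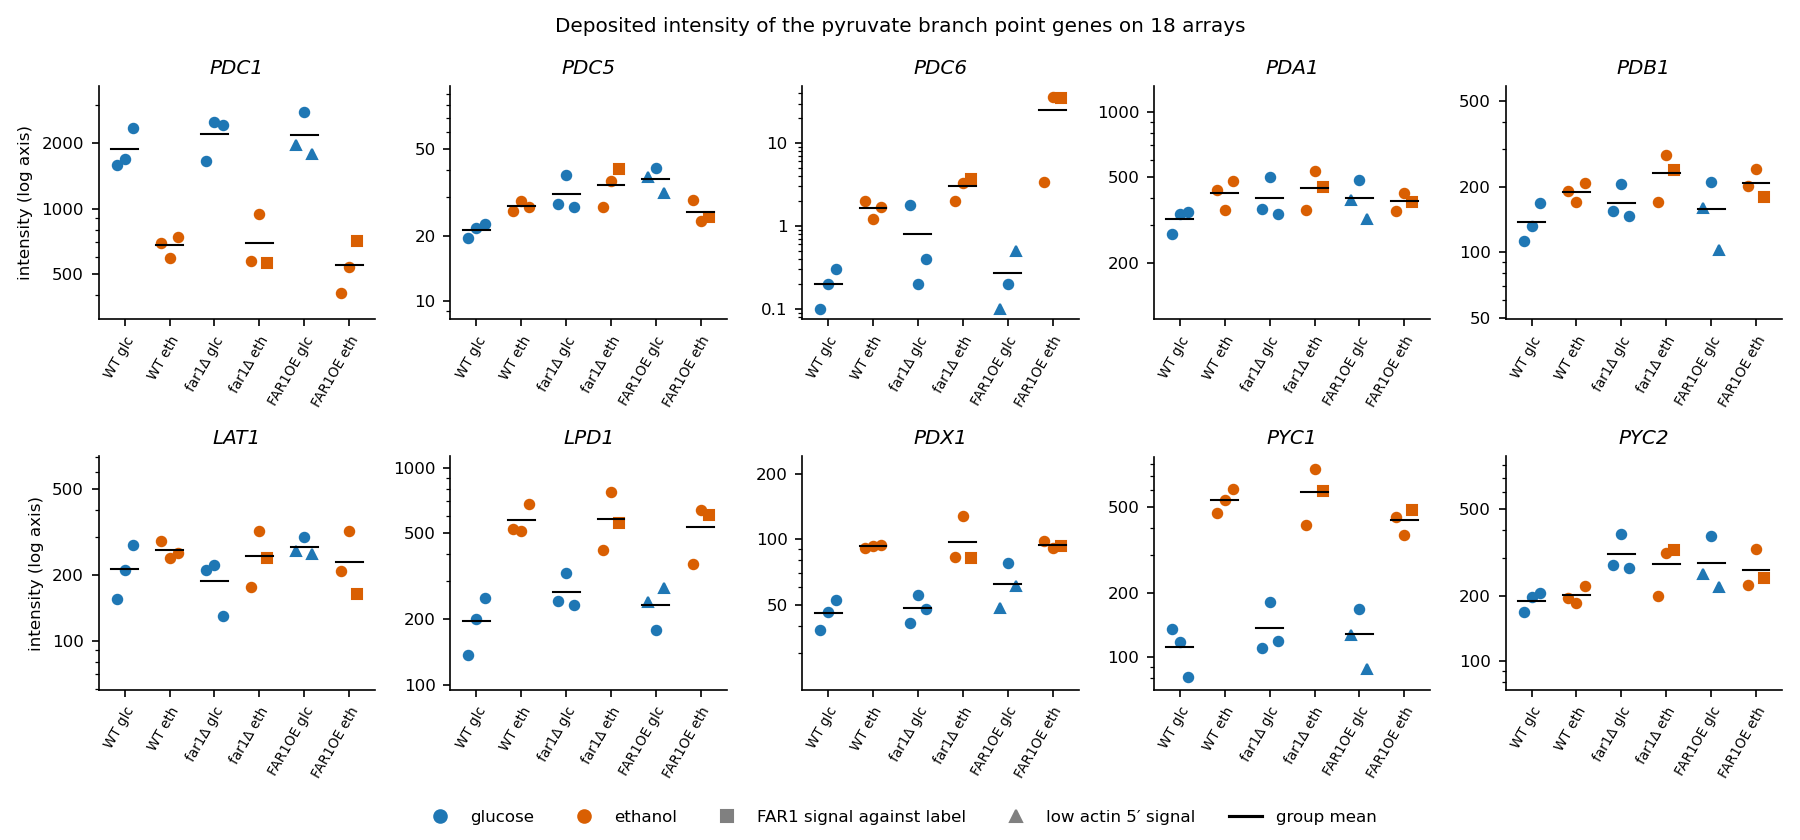
Deposited intensity of each of the 10 genes on the 18 arrays (y axis, log scale, a separate range in each panel) by strain and carbon source (x axis). Points are single arrays, lines are group means, squares mark the pair with a FAR1 signal against its label and triangles the arrays with actin 5′ signals of 4.8 and 2.6. PDC1 lay lower, and LPD1, PDX1 and PYC1 higher, on all 9 ethanol arrays than on all 9 glucose arrays. On this scale the median of all genes was itself higher in ethanol, by log2 0.66 in WT, 0.36 in far1Δ and 0.28 in FAR1OE. The share of all genes that separate in this way was not counted. PDC6 read 36.4 and 35.2 on overexpression ethanol arrays 2 and 3.

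The pyruvate dehydrogenase complex did not move as a block. Its LPD1 subunit, the dihydrolipoamide dehydrogenase that other 2-oxoacid dehydrogenases and the glycine cleavage system share, rose in all 3 strains. LPD1 read 137.1, 200.8 and 249.4 in WT glucose, 241.7, 328.2 and 232 in deletion glucose and 239.7, 178.2 and 278.9 in overexpression glucose. In ethanol it read 522.3, 510 and 680, then 417, 775.5 and 554.9, then 358.1, 637.3 and 605.6. Every ethanol array lay above every glucose array. The log2 changes were 1.08 ± 0.25 in WT (adjusted p = 0.00223), 1.12 in far1Δ (0.00165) and 1.10 in FAR1OE (0.00221), that is 2.12-fold, 2.18-fold and 2.14-fold. Without the arrays with low actin 5′ signal the FAR1OE change of LPD1 rested on the glucose reading of 178.2 alone and was 1.84 (adjusted p = 1.03e-04), or 3.58-fold.

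PDX1 codes for the protein that anchors Lpd1 to the core of the complex. It read 38.1, 46.3 and 52.6 in WT glucose and 91.6, 93.2 and 93.9 in WT ethanol. In far1Δ it read 41.3, 55.5 and 47.9 in glucose and 82.7, 127.9 and 81.8 in ethanol, and in FAR1OE 48.3, 77.4 and 60.6 and then 98.4, 91.4 and 93.4. The glucose and ethanol readings did not overlap over the strains, from 38.1 to 77.4 against 81.8 to 127.9. Relative to the typical gene the change was smaller, 0.36 ± 0.16 in WT (adjusted p = 0.0856), 0.60 in far1Δ (0.00688) and 0.34 in FAR1OE (0.115). On the deposited scale it was 1.03 in WT (adjusted p = 0.00160), where the median of all genes was itself 0.66.

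PDA1 and PDB1 code for the alpha and beta subunits of the first enzyme of the complex, the thiamine-dependent pyruvate dehydrogenase proper. PDA1 read 273.5 to 502.5 in glucose and 350 to 530.2 in ethanol over the 3 strains. Its log2 changes were -0.04, 0.18 and -0.16 in WT, deletion and overexpression, with SE 0.12 and adjusted p = 0.841, 0.265 and 0.317. The 95% interval of the ratio in WT was 0.815 to 1.17. PDB1 read 113.1, 131.7 and 168.8 in WT glucose and 191.8, 171.2 and 208.2 in WT ethanol, a normalized change of 0.03 ± 0.14 (adjusted p = 0.881). It rose by 0.36 in far1Δ (adjusted p = 0.0405) and by 0.41 in FAR1OE (adjusted p = 0.0242), but these calls were lost under 11 and 7 of 27 other settings. On the deposited scale the changes were 0.43 and 0.45 (adjusted p = 0.223 and 0.224), and with array medians centred -0.04 and 0. The call in far1Δ was also lost without the pair whose FAR1 signal went against its label (0.34, adjusted p = 0.0958). That in FAR1OE was lost without the arrays with low actin 5′ signal (0.26, adjusted p = 0.272). In far1Δ it was also lost without any 1 of its 6 arrays, with adjusted p from 0.0579 to 0.114, or without WT ethanol array 2 (0.0504). In FAR1OE it was lost without glucose array 3 (0.22, adjusted p = 0.165) and without ethanol array 1 or 2 (0.0520 and 0.0777).

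LAT1 codes for the dihydrolipoamide acetyltransferase that forms the core. It read 155.6, 211 and 274.8 in WT glucose and 288.5, 238.9 and 254.5 in WT ethanol. Over all strains the readings were 130.2 to 298.8 in glucose and 163.4 to 320.9 in ethanol, and they overlapped. The changes were -0.04 ± 0.20 in WT, 0.34 in far1Δ and -0.37 in FAR1OE, with adjusted p = 0.895, 0.178 and 0.154. With array medians centred the last was -0.72 and passed (adjusted p = 0.00763).

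The pyruvate carboxylase genes parted. PYC1 read 135.1, 118.1 and 80.8 in WT glucose, 110, 180.1 and 118.8 in deletion glucose and 127.2, 167 and 88.2 in overexpression glucose. In ethanol it read 472.9, 540.3 and 608.7, then 412.7, 751.3 and 597.8, then 452.8, 370 and 484.2. The ethanol arrays all lay above the glucose arrays. PYC1 rose by 1.77 ± 0.23 in WT (adjusted p = 6.49e-06), by 2.02 in far1Δ (1.51e-06) and by 1.73 in FAR1OE (1.10e-05), or 3.42-fold, 4.05-fold and 3.32-fold. PYC2, the other isoform of the same cytosolic enzyme, read 168.1, 197.2 and 204.9 in WT glucose and 195.8, 185.4 and 222.1 in WT ethanol. Over all strains PYC2 spanned 168.1 to 384.1 in glucose and 185.4 to 328.2 in ethanol. Its changes were -0.31 ± 0.13, -0.15 and -0.14 with adjusted p = 0.0616, 0.355 and 0.422. Without the pair of arrays against their FAR1 labels the WT change stayed at -0.31 and passed (adjusted p = 0.0426). It also passed without deletion ethanol array 3 alone (adjusted p = 0.0388). With array medians centred the PYC2 changes were -0.65, -0.64 and -0.53 and passed (adjusted p = 7.65e-04, 8.23e-04 and 0.00387). On the deposited scale they were 0.08, -0.17 and -0.08 and did not pass.

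**Figure D2:**
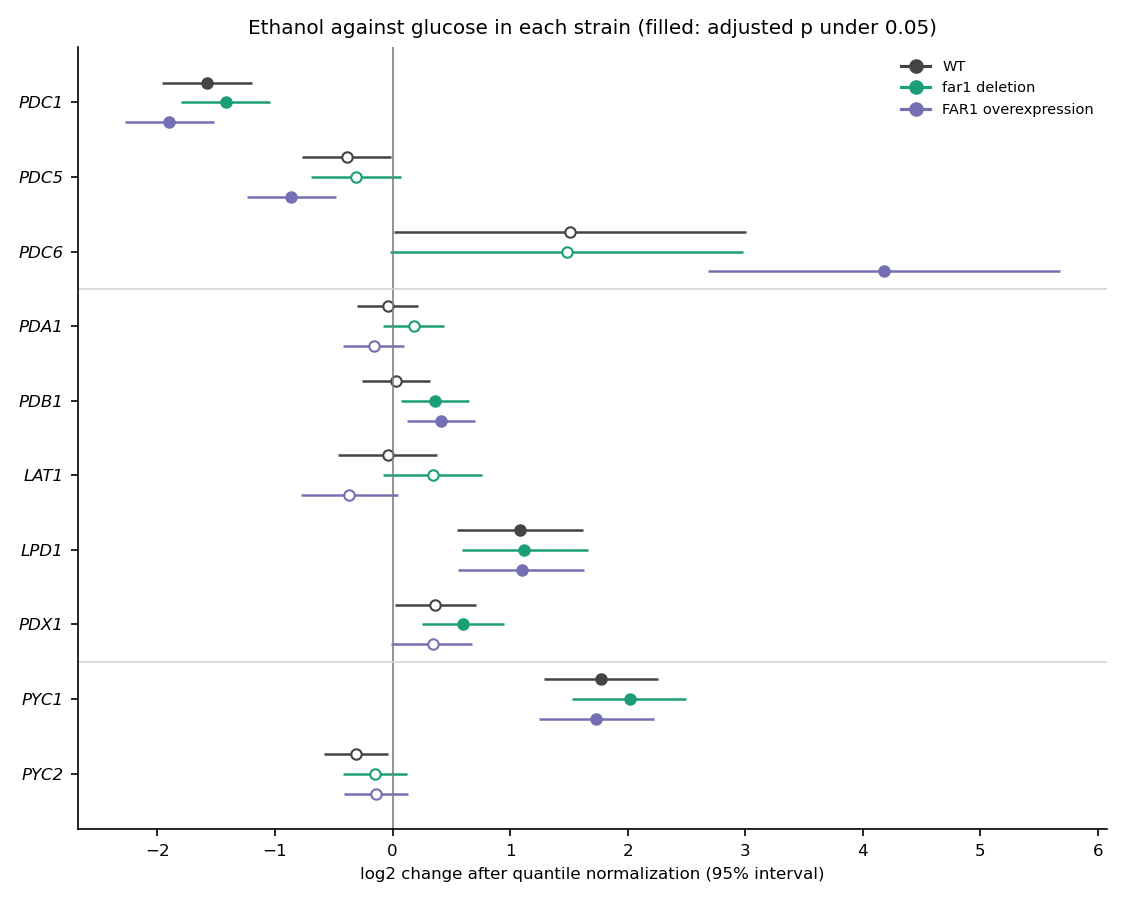
Log2 change in ethanol against glucose (x axis, after quantile normalization) of each gene in WT, the far1 deletion strain and the FAR1 overexpression strain. Bars are 95% intervals from limma, filled points had an adjusted p under 0.05 over all 5545 genes, and grey lines separate the enzymes. PDC1, LPD1 and PYC1 were called in all 3 strains, at -1.90 to -1.42, 1.08 to 1.12 and 1.73 to 2.02, and PDC6 read below the filter level on all 9 glucose arrays.

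The changes of PDC1, LPD1 and PYC1 kept their direction and their call on all 3 scales and in all 3 strains. Without any normalization the middle of all genes itself shifted, by a log2 change of 0.66 in WT, 0.36 in far1Δ and 0.28 in FAR1OE. On that scale PDC1 changed by -1.46, -1.68 and -1.99, LPD1 by 1.57, 1.09 and 1.18 and PYC1 by 2.30, 2.10 and 1.81. With array medians centred PDC1 changed by -2.19, -2.16 and -2.44, LPD1 by 0.83, 0.62 and 0.73 and PYC1 by 1.56, 1.62 and 1.36. The direction of PDC5, PDA1, PDB1, LAT1 and PYC2 in WT, by contrast, turned between these scales, and PDA1 passed as lower in WT and in FAR1OE with array medians centred (-0.34 and -0.49, adjusted p = 0.0421 and 0.00496) but on neither other scale.

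**Figure D3:**
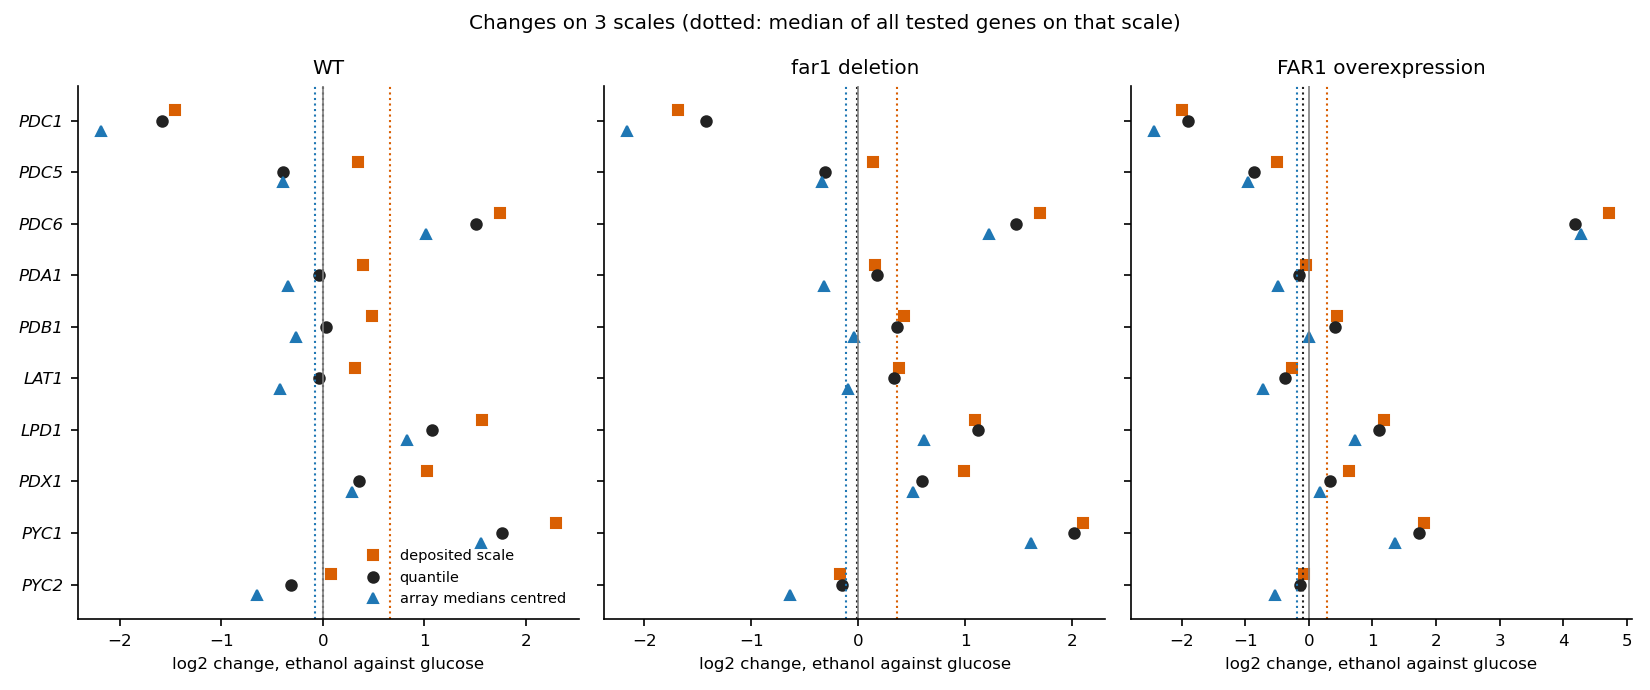
Log2 change in ethanol against glucose (x axis) of the 10 genes on the deposited scale, after quantile normalization and with array medians centred, in each strain. Dotted lines give the median of all tested genes on the same scale. PDC1, LPD1 and PYC1 stayed on 1 side of 0 on each scale, while PDC5, PDA1, PDB1, LAT1 and PYC2 in WT lay on both sides.

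A factor common to all readings of an array cancels in the ratio of the deposited intensities of a pair of genes. A shift that depends on intensity does not cancel. In WT, PDC1 changed by -1.46 on the deposited scale and -1.58 after quantile normalization, but PDC5 by 0.35 and -0.39. Ratios were tested for 6 pairs within an enzyme, chosen after the values were seen. Their p-values, adjusted over these 6 pairs alone, describe the chosen pairs and are no separate support for unequal change. The exact 2-sided test permuted the carbon source within each strain (8000 permutations). The log2 ratio of PYC1 to PYC2 was higher in ethanol by 2.22 in WT, 2.27 in far1Δ and 1.89 in FAR1OE. It ran from -1.34 to -0.32 in glucose and from 0.17 to 1.54 in ethanol, without overlap. For PDC1 to PDC5 the difference, ethanol minus glucose, was -1.82, -1.83 and -1.48 in the same order. Within the dehydrogenase complex, LPD1 gained on PDA1 by 1.17, 0.94 and 1.21 and PDX1 on PDA1 by 0.64, 0.83 and 0.67. These 4 ratios had exact permutation p = 2.50e-04, the smallest the test can give, and adjusted p = 3.75e-04 over the 6 pairs. PDB1 gained on PDA1 by 0.28 on average (exact permutation p = 0.00275, adjusted p = 0.00330), and the LAT1 to PDA1 ratio shifted by -0.03 (exact permutation p = 0.817). A ratio shows unequal change of the deposited readings and not which gene moved.

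Between the FAR1 strains and WT none of the 10 genes passed limma's test in any of the 4 comparisons with WT, and all 4 reuse the WT arrays of their carbon source. In glucose 1.57% of all genes were called between far1Δ and WT and 7.39% between FAR1OE and WT, and in ethanol 0.0721% and 0.379%. At an unadjusted p under 0.05 the members numbered 2, 1, 1 and 1 in the same order. The share of all genes under that unadjusted threshold was not counted, here or below, and nothing is read from these numbers. Nor did any member pass for the difference of a strain's effect between ethanol and glucose, where 0% of all genes were called for deletion and 0.18% for overexpression, with 0 and 1 members at an unadjusted p under 0.05.

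In deletion glucose LAT1 had the lowest change, -0.66 ± 0.20 (95% interval -1.08 to -0.25, adjusted p = 0.118). It read 210.4, 222.7 and 130.2 there against 155.6, 211 and 274.8 in WT, so the readings overlapped. PDX1 changed by -0.37 (adjusted p = 0.326) and PDA1 and PDB1 by -0.22 and -0.21 (adjusted p = 0.460 and 0.541). In overexpression glucose PDB1 had the lowest change, -0.39 ± 0.14 (adjusted p = 0.0926), with readings of 160.2, 211 and 102.1. Of these, 160.2 and 102.1 were on the arrays with low actin 5′ signal, and without these arrays the change was -0.24 (adjusted p = 0.708). PYC1 changed by -0.33 (adjusted p = 0.424), and without WT array 3 this became -0.66 and passed (adjusted p = 0.0437). On the deposited scale PDC5 was higher by 0.76 (adjusted p = 0.0342), where the median of all genes was higher by 0.49.

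In ethanol PDC6 stood highest among the members for overexpression against WT, at a fitted 3.06 (adjusted p = 0.0786). The WT readings of 2, 1.2 and 1.7 all lay below the filter level. PDC6 entered the test through ethanol arrays of the FAR1 strains alone, so its values here are a description. Its high readings were 36.4 on array 2 and 35.2 on array 3, whose FAR1 signal was 3.3. With a pseudocount of 2.9 the fitted PDC6 change was 2.10 (adjusted p = 0.0352). Without the pair of arrays against their FAR1 labels it was 2.47 (adjusted p = 0.163). Without overexpression array 1, which read 3.4, it was 4.09 (adjusted p = 0.00204). The difference of the overexpression effect between carbon sources was 2.67 for PDC6 (adjusted p = 0.257), and 3.70 without that array (adjusted p = 0.0439). PDC1 was at -0.37 ± 0.18 against WT (adjusted p = 0.468) with all arrays. Without the pair its change was -0.64 and passed (adjusted p = 0.0267), resting on readings of 406.9 and 538.4 against 593.4 to 738.5 in WT. PYC1 changed by -0.38 with all arrays and by -0.53 without the pair (adjusted p = 0.611 and 0.372). For deletion against WT in ethanol the changes ran from -0.28 (LAT1) to 0.75 (PDC6), with adjusted p = 0.672 or higher.

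**Figure D4:**
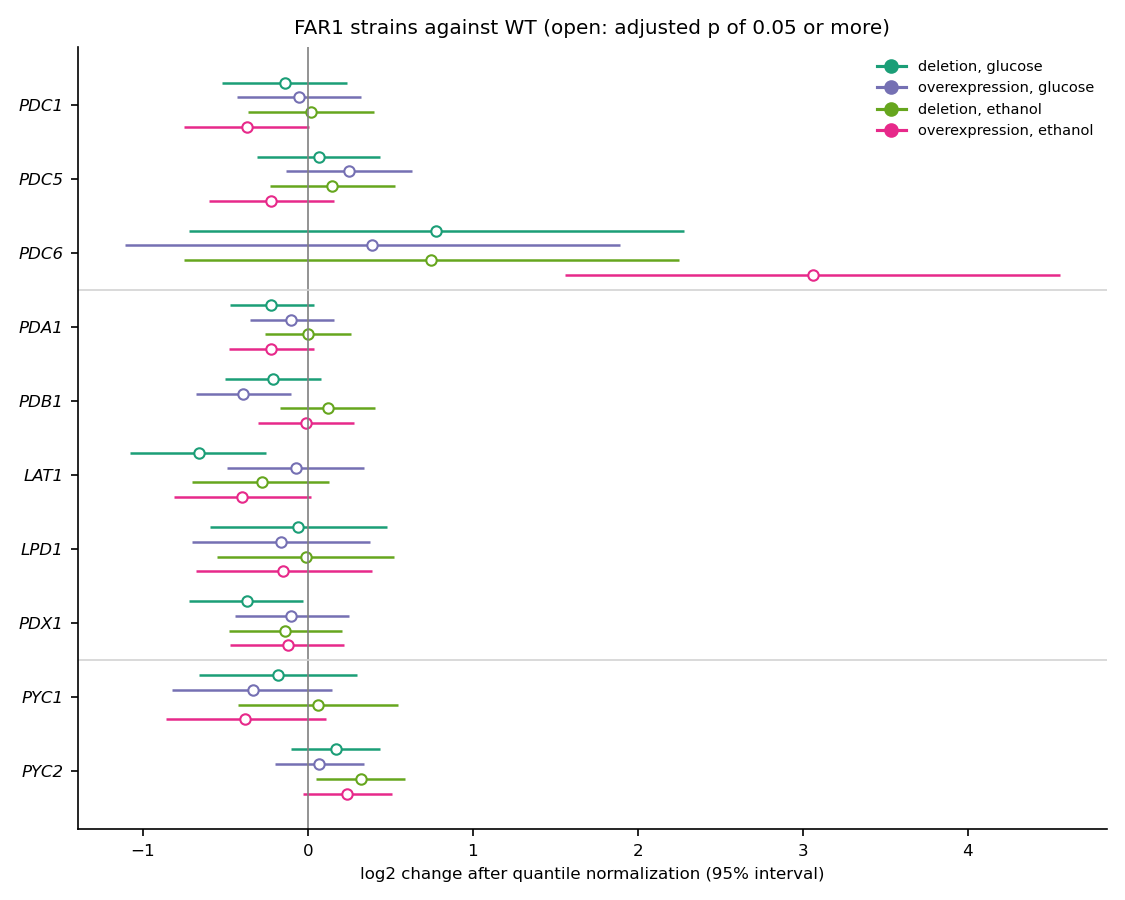
Log2 change of each gene in the FAR1 strains against WT (x axis, after quantile normalization) in glucose and in ethanol, with 95% intervals from limma. All points are open, since no adjusted p was under 0.05. The genes other than PDC6 lay between -0.66 and 0.32, and PDC6 in overexpression ethanol stood at 3.06.

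The genes whose pattern over the 18 arrays was most like that of a member were ranked by Pearson's r of normalized log2 values, which describes likeness only, since the arrays share 6 groups and the carbon source. For PDC1 they were CDC19 (r = 0.987), the main pyruvate kinase gene, YLR108C (0.980) and ADH1 (0.978), the alcohol dehydrogenase gene of fermentation. For PYC1 they were ALD4 (0.972), a mitochondrial aldehyde dehydrogenase gene, COX1 (0.969), a mitochondrially encoded cytochrome oxidase subunit gene, and TAT1 (0.963), an amino acid permease gene. PDA1 had lower values, 0.813 for NUP145, 0.749 for CNN1 and 0.735 for NUP57. For PDC6 they were SEO1 (0.915), a permease family gene, JLP1 (0.905), which codes for a sulfonate dioxygenase, and MMP1 (0.885), an S-methylmethionine permease gene. JLP1 read 254 and 245.2 on overexpression ethanol arrays 2 and 3 and 2.2 on array 1, and at most 6.5 on the other 15 arrays. SEO1 read 334.8 and 280.1 on the same pair of arrays and 53.1 on array 1, and MMP1 266.9 and 263.8 against 99.1. The 2 arrays with the highest PDC6 were thus also the highest for all 3 of these genes. The genes were chosen by likeness to PDC6 over the same arrays, so the shared peak is no separate result.

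Genes next to the branch point were taken from 9 lists with 71 genes, all of which were tested. In ethanol against glucose 26 rose and 10 fell in WT, 28 and 11 in far1Δ and 25 and 13 in FAR1OE, with median changes of 0.24, 0.43 and 0.04. Of all tested genes, 22.4% were called higher and 20.9% lower in WT, 21.7% and 21.2% in far1Δ, and 17.4% and 22.8% in FAR1OE. The lists were chosen with earlier results known. Nothing is read about the lists from these counts, or from those of single lists below. Of the 4 regulators of the dehydrogenase complex, 2 rose in WT. PKP1, a kinase gene for the Pda1 subunit, read 11.4 to 15.1 in WT glucose and 87.6 to 112.2 in WT ethanol and rose by 2.25 ± 0.16 (adjusted p = 3.91e-09). PTC6, the gene of a phosphatase that acts on the same subunit, rose by 1.09 (adjusted p = 4.64e-04), while the second kinase gene PKP2 and the second phosphatase gene PTC5 were at 0.04 and -0.15 (adjusted p = 0.918 and 0.531). In FAR1OE 3 of the 4 rose, PKP2 by 0.80 (adjusted p = 0.0270), a call lost without the arrays with low actin 5′ signal (0.63, adjusted p = 0.291) and without the pair (0.72, adjusted p = 0.0902).

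Of 12 genes for the formation and transport of pyruvate, 5 rose and 3 fell in WT. CDC19 fell by 2.18 on the log2 scale (adjusted p = 3.74e-08), from 2955.4 to 3918.9 in glucose to 701.8 to 984 in ethanol. The subunits of the mitochondrial pyruvate carrier parted: MPC3 rose by 5.99 ± 0.21 (adjusted p = 2.95e-13), from 2.9 to 4.4 in glucose to 307.3 to 400.2 in ethanol. MPC1 rose by 1.03 and MPC2 fell by 1.09 (adjusted p = 2.65e-04 and 5.30e-04), MPC2 reading 275.6 to 408.5 in glucose and 153 to 263.5 in ethanol. The lactate dehydrogenase genes CYB2 and DLD1, whose products form pyruvate, rose by 5.09 and 1.03, and the alanine aminotransferase family gene ALT2 by 1.75. The malic enzyme gene MAE1 fell by 0.76 and lost its call on the deposited scale (-0.26, adjusted p = 0.502).

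Of 12 genes of acetaldehyde use, 4 rose and 4 fell in WT. ADH2, the alcohol dehydrogenase that oxidizes ethanol, rose by 7.22 ± 0.34 and ADH1 fell by 2.21 (adjusted p = 9.75e-12 and 3.09e-09). ALD4 and ACS1, an acetyl-CoA synthetase gene, rose by 4.45 and 7.13, and ACS2 by 0.72. ADH4, ADH5 and ALD5 fell by 1.00, by 1.62 and by 0.94, and none of the 3 passed on the deposited scale. Of 6 subunits of other complexes that use or resemble those of pyruvate dehydrogenase, 4 rose in WT. KGD1 and KGD2 of 2-oxoglutarate dehydrogenase, which shares Lpd1, rose by 3.03 ± 0.19 and 2.47 ± 0.12, and KGD4 by 1.92. GCV3 of glycine cleavage rose by 0.76, and with array medians centred by 0.50 without passing (adjusted p = 0.148). GCV1 and GCV2 were at -0.21 and 0.05 (adjusted p = 0.588 and 0.914).

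Of 9 genes of oxaloacetate and citrate entry, 7 rose and 1 fell in WT. PCK1, which turns oxaloacetate into phosphoenolpyruvate, rose by 7.56 ± 0.30, MDH2 of cytosolic malate dehydrogenase by 3.83, CIT1 of citrate synthase by 2.79 and MDH1 by 2.68. The gene that fell was AAT1, an aspartate aminotransferase gene, at -0.55 (adjusted p = 0.00583), and on the deposited scale it turned to 0.20 without passing. In the list of other users of pyruvate and 2-oxoacid decarboxylases, 2 of 4 rose and 1 fell in WT. AGX1, an alanine to glyoxylate aminotransferase gene whose product forms pyruvate, rose by 6.22 ± 0.15 (adjusted p = 1.19e-15) and ARO10, a phenylpyruvate decarboxylase gene, by 2.65. ILV6, the regulatory subunit gene of acetolactate synthase, fell by 0.58 and lost its call on the deposited scale (-0.14, adjusted p = 0.685), and ILV2 was at 0.05 (adjusted p = 0.905).

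Among the cofactor lists, of 15 regulators of pyruvate decarboxylase and genes of thiamine supply, 2 rose and 1 fell in WT, with a median of 0.04. The thiamine transporter gene THI7 rose by 1.69 ± 0.23 (adjusted p = 9.59e-06) and the regulator gene THI2 by 0.99, while PHO3, an acid phosphatase gene repressed by thiamine, fell by 0.77 and lost its call on the deposited scale (-0.37, adjusted p = 0.221). PDC2, an activator gene of the decarboxylase genes, was at -0.03 (adjusted p = 0.919) and was chosen for mention after its value was seen. THI72, another thiamine transporter gene, was at 0.72 (adjusted p = 0.0945). None of 3 lipoate genes and none of 6 biotin genes passed limma's test in WT (1 and 1 at an unadjusted p under 0.05), with LIP5 at 0.35 (adjusted p = 0.0855), BIO3 at -0.83 (adjusted p = 0.0601) and BPL1, the ligase gene that attaches biotin to pyruvate carboxylase, at -0.16 (adjusted p = 0.581).

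Between strains, 2 of these 71 genes passed in deletion glucose, both lower, against 1.57% of all genes. In overexpression glucose 3 were higher and 1 lower, against 7.39% of all genes. In overexpression ethanol 1 was lower, against 0.379%, and nothing is read from these counts about the lists. In deletion glucose CYB2 fell by 1.23 ± 0.23 and ARO10 fell by 2.73 ± 0.56 (adjusted p = 0.00994 and 0.0188). The CYB2 call held under 24 of 28 other settings and the ARO10 call under 23. With the BioDn split as a block both were lost (adjusted p = 0.217 and 0.0601). The CYB2 call was also lost on the deposited scale (-0.80, adjusted p = 0.118). The ARO10 call was also lost without array 1 or 2 of either glucose group compared (adjusted p from 0.0515 to 0.126). In overexpression glucose ALD2 rose by 1.23, ACS1 by 0.95 and AGX1 by 0.73, and ARO10 fell by 1.89 (adjusted p = 0.0396, 0.0271, 0.00621 and 0.0490). Without the arrays with low actin 5′ signal all 4 calls were lost, with adjusted p = 0.345, 0.237, 0.450 and 0.865. The ARO10 change was then -0.50. In overexpression ethanol PHO3 fell by 0.66 ± 0.14 against WT (adjusted p = 0.0431), a call that held under 13 of 28 other settings. By limma 0 of the 71 passed for deletion against WT in ethanol, against 0.0721% of all genes. At an unadjusted p under 0.05 they numbered 8, and the share of all genes under that threshold was not counted.

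**Figure D5:**
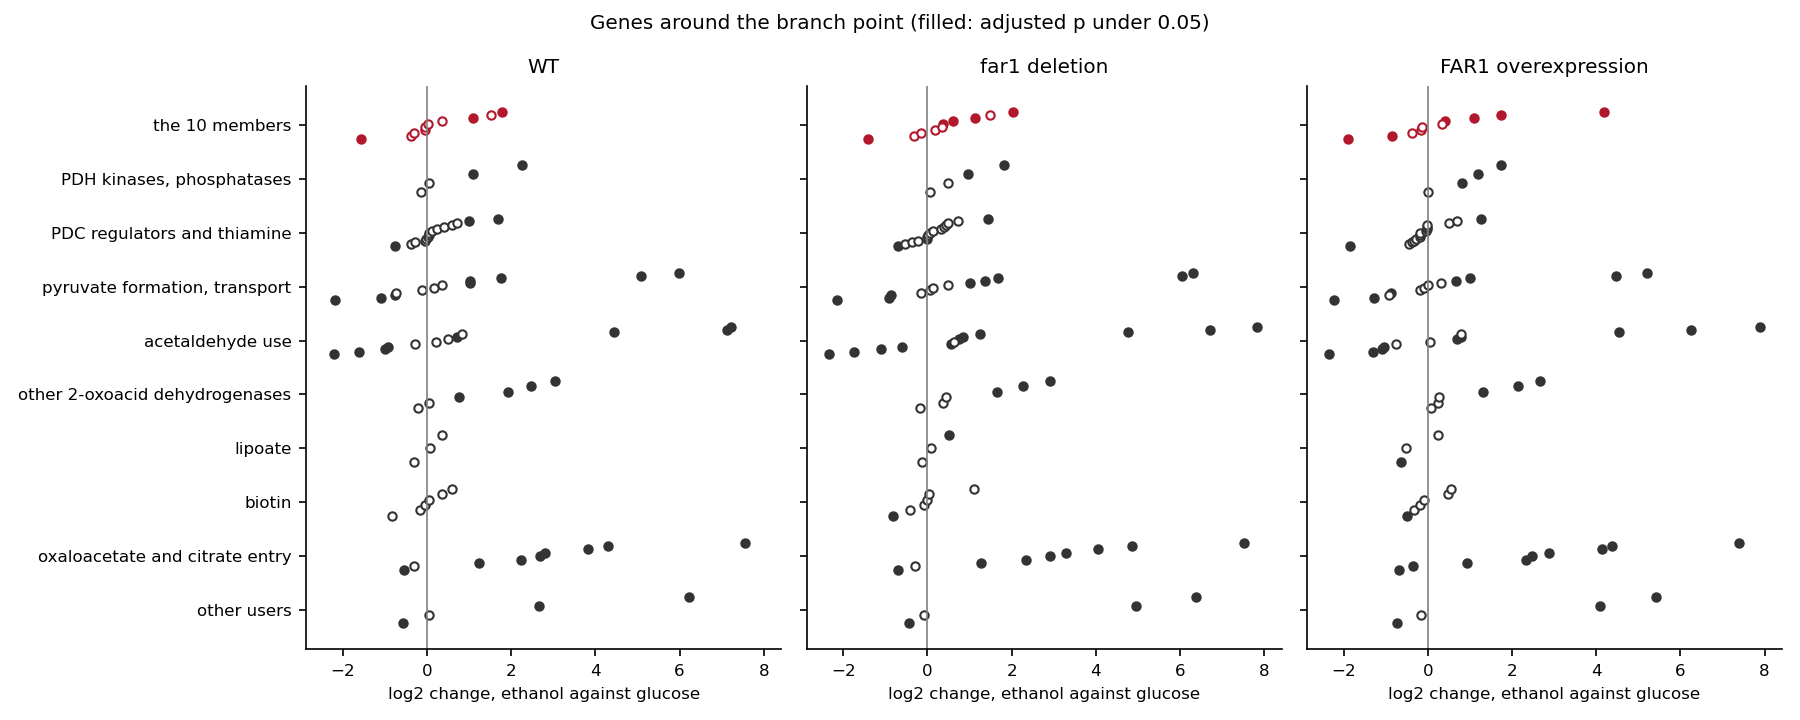
Log2 change in ethanol against glucose (x axis, after quantile normalization) of the 10 branch point genes (red) and of the 71 genes of 9 lists around them (black), by strain. Filled points had an adjusted p under 0.05. The members ran from -1.58 to 1.77 in WT, inside the range of the neighbours, which reached 7.56 for PCK1 and -2.21 for ADH1.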

How the data were processed

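The authors deposited 1 signal intensity per probe set and array on a linear scale, and the scans were processed with GCOS per the submitters' processing notes. The sources used here give neither its version nor its signal algorithm or scaling. Gene names came from the platform's probe table and matched RefSeq gene IDs with 0 symbols updated. No sequence or coordinate was used. From the intensity, log2 (value + 0.4, the 10th percentile) was taken and quantile normalized over 9275 non-control probe sets. A gene with several probe sets was represented by the one with the highest mean, and was tested if at least 3 arrays read it above their own 20th percentile. limma 3.58.1 (R 4.3.3; lmFit, eBayes with intensity trend) fitted 6 group means to 18 arrays, with 12 residual and 5.47 prior degrees of freedom and 9 comparisons. The fit was tested on simulated data. Ratios used exact permutation (Python 3.11.15, scipy 1.17.1).

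Members, lists and tests were chosen with earlier results of these data known. The text names all 10 members, up to 4 genes of each list with the smallest adjusted p in WT, any list gene called between strains, and the 3 genes most like PDC1, PDC6, PDA1 and PYC1. PDC2, MPC1, MPC2, MAE1, ALT2, ACS2, ADH4, ADH5, ALD5, AAT1, GCV1, GCV2 and PKP2 in FAR1OE were named beyond this rule, after their values were seen. The model had no replicate block, since same-numbered cultures of different groups had deviations from their group means that correlated at -0.375 to 0.179, and the labels state no pairing.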

Additional observations from a re-analysis of the deposited data

Results flagged for a closer look

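Among the 10 members and 71 list genes, only PHO3 passed limma's test for a strain effect that differed between carbon sources. It is an acid phosphatase gene of the thiamine list. Over all genes 0.18% were called for this difference under overexpression, and a list gene so called was named by rule. The effect of overexpression against WT was lower in ethanol than in glucose by 1.08 on the log2 scale (value -1.08, SE 0.20, adjusted p = 0.0225). PHO3 read 642.7 to 879.6 in overexpression glucose, 376.9 to 464.6 in WT glucose, 199.8 to 256.8 in overexpression ethanol and 298.5 to 371.3 in WT ethanol. The call held under 18 of 28 other settings. It was lost on the deposited scale (-1.38, adjusted p = 0.121), without the arrays with low actin 5′ signal (-0.88, adjusted p = 0.190), and with only the groups compared. It was also lost without WT glucose array 1, any 1 of the 3 WT ethanol arrays, FAR1OE glucose array 1 or FAR1OE ethanol array 2 or 3, with adjusted p from 0.0505 to 0.0971.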

How the results depend on the processing

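The counts of members called in ethanol against glucose were 3 in WT, 5 in far1Δ and 6 in FAR1OE. On the deposited scale they were 5, 4 and 4, and with array medians centred 5, 5 and 8, the last with 3 higher and 5 lower in place of 4 and 2. The count for overexpression against WT in glucose, 0, became 1 on the deposited scale (PDC5). That for overexpression against WT in ethanol, 0, became 1 without the pair of arrays whose FAR1 signal goes against their label (PDC1). With a pseudocount of 2.9 it became 1 through PDC6, which passed the filter through ethanol arrays of the FAR1 strains alone. Leaving out 1 array at a time gave 3 to 4, 4 to 6 and 5 to 6 members in the 3 carbon comparisons. It gave 0 to 1 for overexpression against WT in glucose, in ethanol and for the difference of that effect, and 0 in the 3 deletion comparisons. PDB1 was called higher in ethanol in far1Δ and FAR1OE, and with array medians centred it changed by -0.04 and 0.00 there. The cause was not tested. The PDB1 calls were lost under 11 (far1Δ) and 7 (FAR1OE) of 27 settings and the PDC5 call in FAR1OE under 1, and no other member's call was lost under any setting run. For PDC6 in FAR1OE this is no support, since PDC6 passed the filter through ethanol arrays alone. Its fitted change there ran from 2.44 to 5.21 over the settings. With the replicate block the counts were 3, 5 and 6, and 0 in all 6 strain comparisons, as without it. The same numbers of members were called without a filter on low values (3, 5, 6) and with the mean of all probe sets of a gene (3, 5, 6). The split of the arrays by the BioDn control as a block, which rests on far1Δ glucose array 1, gave 0 members in the 6 strain comparisons. Over all genes, the count for overexpression against WT in glucose was 410, 906 on the deposited scale, 62 without the arrays with low actin 5′ signal, 94 with only the groups compared and 20 with that block. That for deletion against WT in glucose was 87, and 43, 36 and 133 with only the groups compared, with the BioDn block and on the deposited scale. That for overexpression against WT in ethanol was 21, and 111 without the pair. The count for ethanol against glucose in FAR1OE was 2231, 1456 on the deposited scale and 1328 without the arrays with low actin 5′ signal.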
